A study of Ictidomys tridecemlineatus with 15 samples.

Results

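The core splicing factor families are the RNA-binding and small nuclear ribonucleoprotein (snRNP) proteins that choose and join exons. Their members were taken by name from a table of 6324 transcription units: a unit belongs when a gene name in it starts with Hnrnp, Srsf, Sf3a, Sf3b, Prpf, Snrp, U2af, Tra2 or with Lsm and a digit. The rule found 66 units. Of these, 39 carry a single gene name, out of 4705 such units in all, and 27 are merged units that share their counts with neighbouring or overlapping genes, out of 1619. The 39 single-gene members comprise 8 SR proteins (Srsf and Tra2 names), 11 heterogeneous nuclear ribonucleoproteins (hnRNPs) and 20 members of a snRNP group (4 Snrp, 4 Lsm, 5 U2 factors and 7 Prpf names). Of the 39 names, 38 matched a RefSeq gene symbol of the species, and the exception was SNRPB_like, a copy of uncertain identity. Lsm12 and Lsm14a fit the rule by name but are not subunits of the LSm ring of the spliceosome.

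Global run-on sequencing (GRO-seq) was performed on nuclei from frozen liver of female 13-lined ground squirrels, each library from a different animal, with no genotype or treatment groups. The 5 states were summer active (SA, 3 libraries, homeothermic animals before hibernation), interbout aroused (IBA, 3, warm between torpor bouts), entrance into torpor (Ent, 3, cooling), early torpor (ET, 3, cold) and late torpor (LT, 2, cold; the authors removed LT replicate 2). The deposited counts per library ranged from 3713883 to 8884763, and the lowest count of any single-gene member in any library was 63. Values are in CPM, counts scaled to the TMM-normalised library size, so they are relative to the rest of each library and a fall common to all genes would not be visible. The authors propose that in torpor elongation goes on slowly while termination fails, so that polymerase can run past gene ends. They extended units at the 3′ end where transcribed segments reached further. Polymerase that stayed on a gene or ran into it may thus add to counts in the cold. Its part in the differences was not tested.

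SR proteins carry a domain rich in arginine and serine, bind exonic enhancers and help the splicing machinery recognise exons, whereas hnRNPs coat nascent transcripts and often oppose exon inclusion. The snRNPs are the RNA and protein particles of the spliceosome itself, assembled on Sm or LSm rings, with U1 and U2 particles marking the splice sites and PRP factors driving later steps. Liver cells depend on these families for most of their messenger RNAs, and several members are known to control the splicing of their own transcripts.

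Transcription of the single-gene members took up about the same share of each library in both warm states and a larger share in the cold states. Their summed counts were 0.512% ± 0.0237 of the SA libraries, 0.511% ± 0.0157 of IBA, 0.678% ± 0.0470 of Ent, 1.05% ± 0.0527 of ET (SD, n = 3 each) and 0.948% ± 0.0147 of LT (SD, n = 2). Each ET and LT library lay above every Ent library, and each Ent library above every SA and IBA library. The SR share went from 0.119% ± 0.00672 in SA (SD, n = 3) to 0.330% ± 0.0184 in ET (SD, n = 3). The hnRNP share was 0.258% ± 0.00818 in SA and 0.507% ± 0.0323 in ET (SD, n = 3 each), and that of the snRNP group 0.134% ± 0.0114 and 0.212% ± 0.00776 (SD, n = 3 each).

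**Figure D1:**
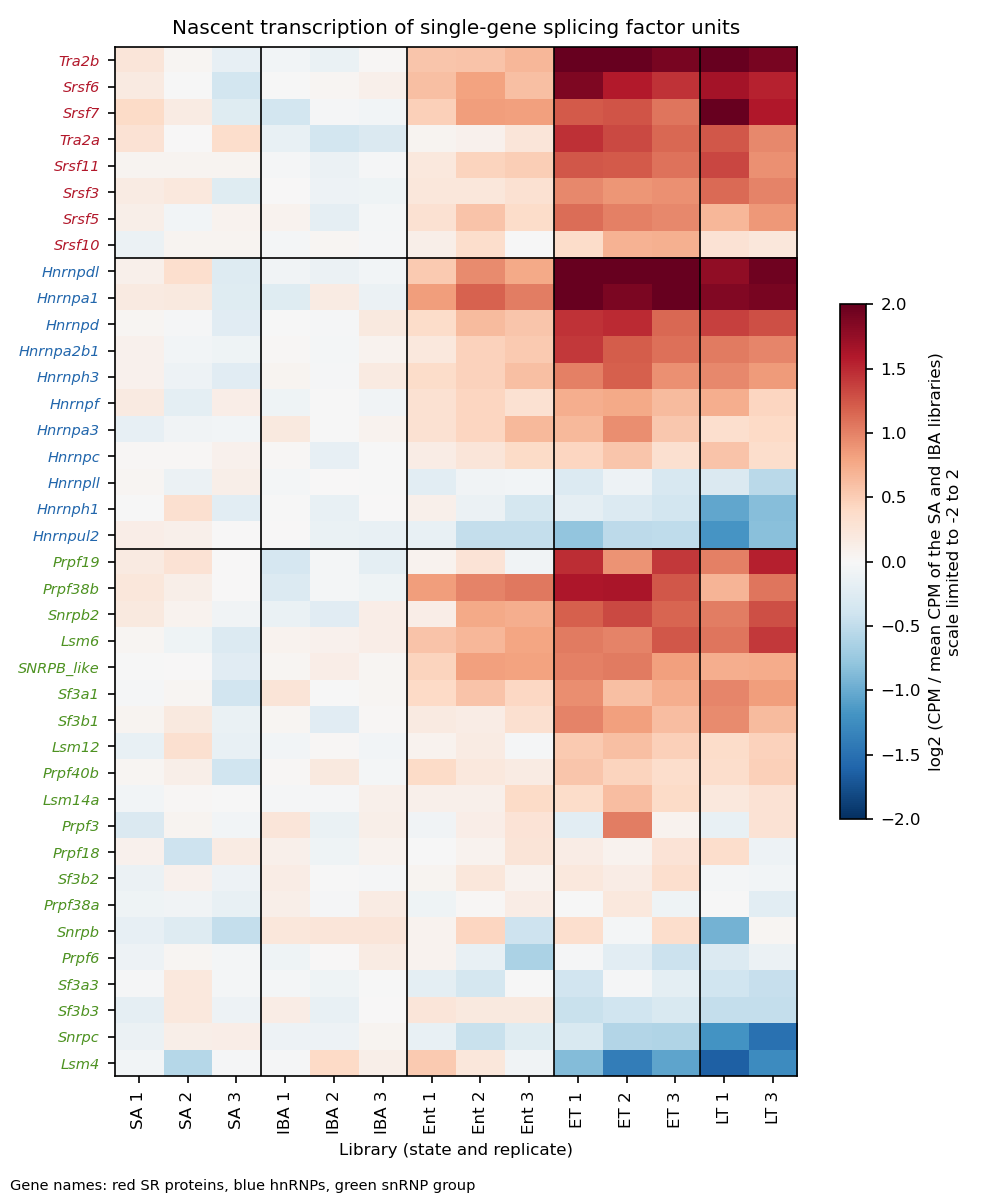
Heat map of the 39 single-gene members (vertical axis, grouped as SR, hnRNP and snRNP and ordered by their difference between cold and warm states) in the 14 libraries (horizontal axis); colour is the log2 ratio of CPM to the mean CPM of the SA and IBA libraries, limited to -2 and 2. The ET and LT columns are red, above every SA and IBA library, for 26 members, led by Tra2b, Hnrnpdl and Hnrnpa1, whereas Lsm4, Snrpc and Hnrnpul2 at the foot of their groups are blue.

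Torpid animals are cold and have a low metabolic rate, whereas summer active and aroused animals are warm. The members were examined for a larger or smaller part in liver transcription in cold than in warm animals. The cold states (ET and LT) were compared with the warm states (SA and IBA) in a single edgeR quasi-likelihood model of all units, with p-values adjusted over all 6324 units and a threshold of 0.001. SA replicate 1 and the LT libraries came from the first of 3 collection seasons. The ET libraries came from the second and the other warm libraries from the third. Season was not part of this model, and its part in the difference between cold and warm was not tested. Transcription of 22 of the 39 single-gene members was higher in the cold states, a call made for 18.3% of all single-gene units, and 4 members were lower, against 18.7%. The higher members were 7 of 8 SR proteins, 8 of 11 hnRNPs and 7 of 20 in the snRNP group. The lower members were Lsm4, Snrpc, Hnrnpul2 and Hnrnph1, so that both hnRNP and snRNP members moved in opposite directions. In 26 members every cold library lay above every warm library (20.3% of all single-gene units), and in 4 every cold library lay below (20.2%). The median log2 fold change was 0.65 over the members, against -0.07 over all single-gene units, and came to 1.20 in SR proteins, 0.65 in hnRNPs and 0.30 in the snRNP group. Between cold and warm, DESeq2 called 26 members higher (23.8% of all single-gene units) and 5 lower (25%). When the 5 states were tested together, 22 members differed, against 26.4% of all single-gene units: 7 SR, 6 hnRNP and 9 snRNP members. Without 1 library the edgeR count ranged from 17 to 22 (17.8% to 26.1% of all single-gene units). DESeq2 called 30 (51.4% of all single-gene units). Lsm4 did not pass without LT replicate 1. Sf3a1 did not pass without IBA replicate 2, IBA replicate 3, ET replicate 3, LT replicate 1 or LT replicate 3. Sf3b1 did not pass without IBA replicate 1, IBA replicate 2, IBA replicate 3, ET replicate 1, ET replicate 2 or LT replicate 1. Hnrnpul2 did not pass without SA replicate 1, SA replicate 2, SA replicate 3, IBA replicate 1, IBA replicate 2, IBA replicate 3, Ent replicate 2, ET replicate 3, LT replicate 1 or LT replicate 3. Snrpc did not pass when any 1 library other than ET replicate 1 was left out. With total counts as library size Hnrnpul2 and Snrpc did not pass. With blocks of equal replicate number Hnrnpul2, Sf3b1 and Snrpc did not, and 19 members differed (19.3% of all single-gene units). Fewer nuclei of a cell type and less transcription per nucleus cannot be told apart in bulk liver. Of the 39 members, the rule for describing single genes did not select Srsf10, Hnrnpll, Sf3a3, Sf3b3, Lsm12, Lsm14a, Prpf3, Prpf6, Prpf18 and Prpf40b, and their description was added after their values were seen.

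**Figure D2:**
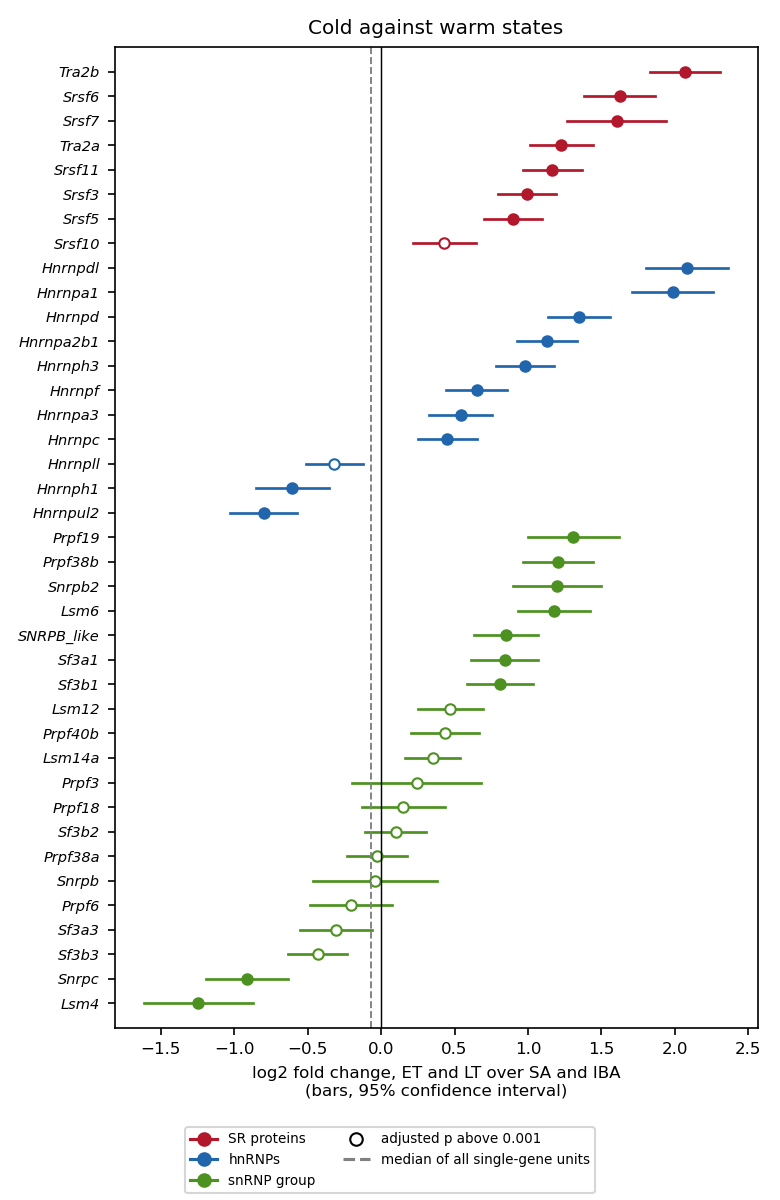
Log2 fold change of each of the 39 single-gene members (vertical axis) in ET and LT over SA and IBA (horizontal axis), with bars for the 95% confidence interval, filled points for adjusted p at or under 0.001 and a dashed line at the median of all single-gene units (-0.07). All 8 SR members lie to the right of zero, from 0.43 to 2.07, whereas the hnRNP and snRNP members spread to both sides, down to -0.80 and -1.25.

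Among the SR proteins, Tra2b, a sequence-specific activator of exons with purine-rich enhancers, had 301, 260.5 and 227 CPM in SA, 245, 229.9 and 256 in IBA, 372, 376 and 403 in Ent, 1260.1, 1081 and 943 in ET and 1127 and 943 in LT. The 5 cold libraries lay far above the rest without overlap, and the Ent libraries lay above every warm one. The log2 fold change from warm to cold was 2.07 (SE 0.11, adjusted p = 1.65e-07), or 4.20-fold. Its relative Tra2a, read from the minus strand of chromosome 2 from 81400159 to 81430327, had 127, 104 and 132 CPM in SA, 93.8, 80.3 and 84.9 in IBA, 108, 109.6 and 123 in Ent, 284, 258 and 231 in ET and 244 and 201 in LT. Both cold states stood above all other libraries, whereas Ent overlapped SA, and the log2 fold change was 1.23 (SE 0.10, adjusted p = 7.09e-07).

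Srsf7, an SR protein with a zinc knuckle, had 50.6, 43.5 and 32.8 CPM in SA, 29.8, 38.0 and 37.0 in IBA, 53.9, 68.8 and 68.0 in Ent, 90.3, 92.5 and 80.8 in ET and 193 and 118 in LT. The LT libraries were the highest and differed from each other by more than the ET libraries did, and no cold library overlapped a warm or Ent one. From warm to cold the log2 fold change of Srsf7 was 1.60 (SE 0.15, adjusted p = 2.54e-06). Srsf6 was transcribed at 92.9 ± 11.2 CPM over the warm libraries (SD, n = 6) and 286 ± 32.3 over the cold ones (SD, n = 5), a log2 fold change of 1.62 (SE 0.11, adjusted p = 3.03e-07). Srsf11, with 194 ± 9.23 CPM over the warm libraries (SD, n = 6) and 435 ± 47.8 over the cold ones (SD, n = 5), rose by a log2 fold change of 1.17 (SE 0.09, adjusted p = 6.44e-07). Srsf3, the smallest classical SR protein, had 153 ± 18.3 CPM over the warm libraries (SD, n = 6) and 302 ± 21.4 over the cold ones (SD, n = 5) (log2 fold change 0.99, adjusted p = 1.86e-06). Srsf5 had 294 ± 18.1 CPM for SA, 276 ± 23.7 for IBA, 381 ± 37.6 for Ent, 583 ± 31.1 for ET (SD, n = 3 each) and 484 ± 48.2 for LT (SD, n = 2), with a log2 fold change from warm to cold of 0.90 (SE 0.09, adjusted p = 3.42e-06). In Srsf3, Srsf5, Srsf6 and Srsf11 the cold libraries did not overlap the warm ones. Srsf10, known as a splicing repressor when dephosphorylated, had the smallest SR difference, with 74.2, 83.9 and 83.8 CPM in SA, 78.7, 83.0 and 79.2 in IBA, 87.1, 103 and 79.9 in Ent, 104, 129.8 and 132 in ET and 98.6 and 94.4 in LT. Its cold libraries also lay above every warm one, yet the log2 fold change of 0.43 (SE 0.10, adjusted p = 0.00213) did not pass the threshold. Srsf10 passed by DESeq2 (log2 fold change 0.45, adjusted p = 4.91e-05), with total counts as library size (adjusted p = 9.02e-04) and without ET replicate 1 (7.81e-04).

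The hnRNPs held the largest fold change of all the members. Hnrnpdl, a paralogue of Hnrnpd, had 72.8, 86.1 and 56.6 CPM in SA, 64.5, 62.5 and 65.3 in IBA, 98.1, 131 and 115 in Ent, 314, 399 and 286 in ET and 232 and 263 in LT. All cold libraries lay above all others, with ET replicate 2 the highest, and the Ent libraries lay above every warm library. Its log2 fold change of 2.08 (SE 0.13, adjusted p = 2.11e-07) corresponds to 4.24-fold. Hnrnpa1, a shuttling protein that binds exonic silencers, had 107, 108 and 79.8 CPM in SA, 79.9, 105 and 87.5 in IBA, 168, 214 and 193 in Ent, 486, 350.2 and 377 in ET and 340.4 and 350.4 in LT. The warm, Ent and cold libraries formed 3 separate ranges, and the log2 fold change from warm to cold was 1.99 (SE 0.13, adjusted p = 2.30e-07). Hnrnpa2b1, its close relative, had the highest transcription per kilobase among the members, at 16.9 CPM per kb in the warm and 37.6 in the cold states, and a log2 fold change of 1.13 (SE 0.09, adjusted p = 9.04e-07).

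Hnrnpd, which binds AU-rich RNA, had 164 ± 15.3 CPM over the warm libraries (SD, n = 6) and 418 ± 38.2 over the cold ones (SD, n = 5) and a log2 fold change of 1.35 (SE 0.10, adjusted p = 3.81e-07). Hnrnph3, a binder of G-rich RNA, had 183 ± 17.6 CPM over the warm libraries (SD, n = 6) and 364 ± 33.3 over the cold ones (SD, n = 5) and rose by a log2 fold change of 0.98 (SE 0.09, adjusted p = 2.06e-06). Smaller rises were measured in Hnrnpf (log2 fold change 0.65, adjusted p = 7.33e-05), Hnrnpa3 (0.54, adjusted p = 3.72e-04) and Hnrnpc, which binds uridine tracts (0.45, adjusted p = 9.09e-04). In each of these genes no cold library overlapped a warm one. The call for Hnrnpc was lost when any 1 of the 14 libraries was left out, namely SA replicate 1 (adjusted p = 0.00246), SA replicate 2 (0.00149), SA replicate 3 (0.00180), IBA replicate 1 (0.00197), IBA replicate 2 (0.00337), IBA replicate 3 (0.00250), Ent replicate 1 (0.00127), Ent replicate 2 (0.00110), Ent replicate 3 (0.00104), ET replicate 1 (0.00184), ET replicate 2 (0.00232), ET replicate 3 (0.00146), LT replicate 1 (0.00739) or LT replicate 3 (0.00157). The call was also lost with blocks of equal replicate number (adjusted p = 0.00293). Over all alternatives the adjusted p of Hnrnpc ranged from 5.43e-08 to 0.00739. The call for Hnrnpa3 was lost without SA replicate 1 (adjusted p = 0.00118), IBA replicate 2 (0.00145), IBA replicate 3 (0.00141), LT replicate 1 (0.00163) or LT replicate 3 (0.00239). Blocks of equal replicate number also lost it (adjusted p = 0.00107). Its adjusted p over all alternatives ranged from 7.16e-08 to 0.00239.

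Of the 3 hnRNPs with lower values in the cold, 2 passed the test. Hnrnph1, a binder of G-runs related to Hnrnpf and Hnrnph3, had 255, 319 and 221 CPM in SA, 255, 233 and 258 in IBA, 275, 237 and 200.3 in Ent, 228, 212 and 198 in ET and 125 and 142 in LT. The LT libraries were the lowest, while ET replicate 1 lay above SA replicate 3, so the cold and warm ranges overlapped. Its log2 fold change was -0.60 (SE 0.12, adjusted p = 5.46e-04). This call was lost without SA replicate 1 (adjusted p = 0.00104), IBA replicate 1 (0.00163), IBA replicate 2 (0.00106), IBA replicate 3 (0.00180), Ent replicate 2 (0.00118), ET replicate 2 (0.00142), ET replicate 3 (0.00188), LT replicate 1 (0.00501) or LT replicate 3 (0.00206), and with total counts as library size (0.00290). The call was lost with blocks of equal replicate number as well (adjusted p = 0.00146). The adjusted p of Hnrnph1 over all alternatives ranged from 4.81e-06 to 0.00501. Hnrnpul2, related to the scaffold protein hnRNP U, had 119.8, 117 and 109 CPM in SA, 109, 99.3 and 98.5 in IBA, 97.9, 78.3 and 78.1 in Ent, 63.2, 75.4 and 76.3 in ET and 47.9 and 60.7 in LT. All cold libraries lay below every warm library, and the log2 fold change was -0.80 (SE 0.11, adjusted p = 3.15e-05). Hnrnpll, known for regulating splicing in lymphocytes, had 103 ± 5.55 CPM over the warm libraries (SD, n = 6) and 84.0 ± 9.20 over the cold ones (SD, n = 5). Its ranges overlapped and its log2 fold change of -0.32 (SE 0.09, adjusted p = 0.00788) did not pass.

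**Figure D3:**
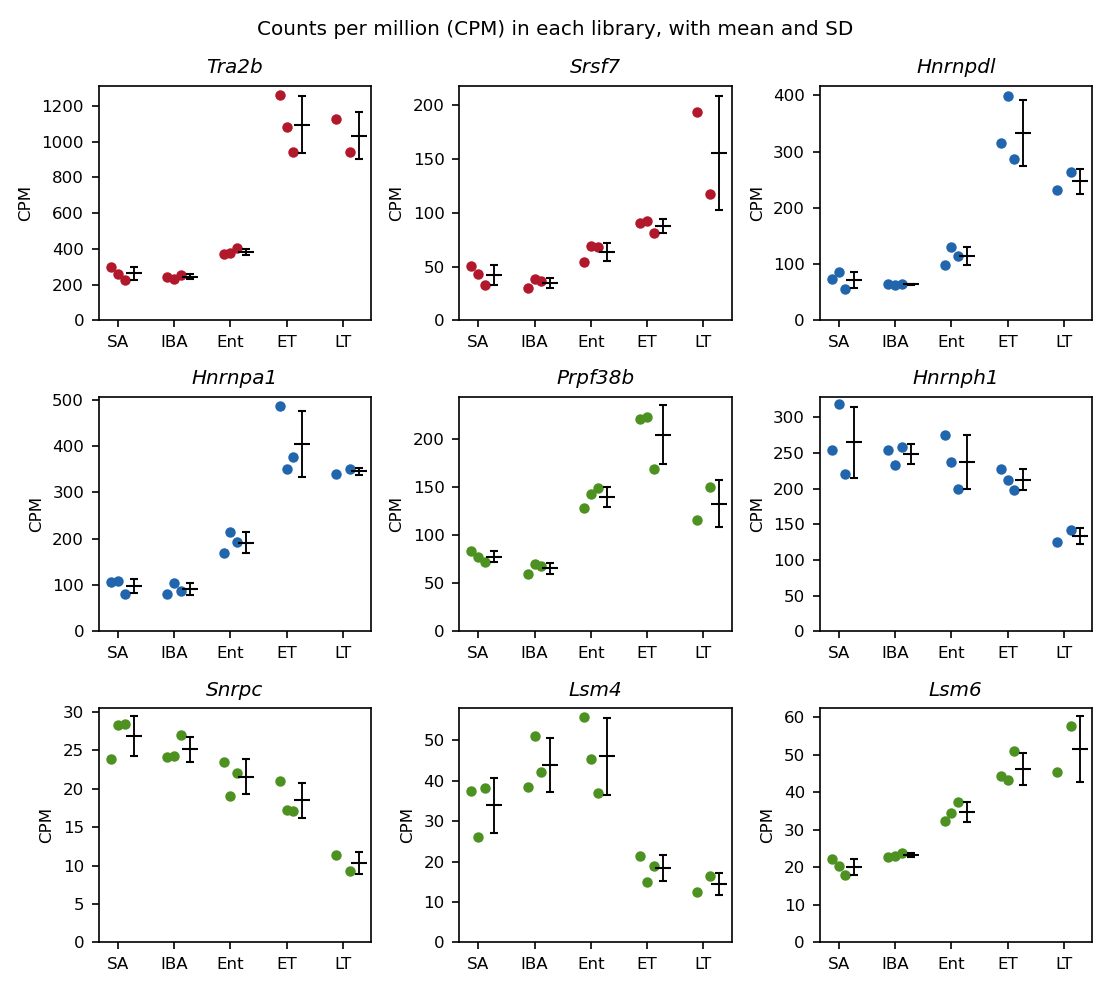
CPM (vertical axis, from 0) of 9 members in each library by state (horizontal axis); points are libraries, and the black marks show the mean and SD of 3 libraries, or of 2 in LT. Tra2b and Hnrnpdl have their larger step between Ent and ET, Prpf38b and Srsf7 on the log2 scale between IBA and Ent, and Hnrnpa1 has steps of similar size at both. Srsf7 and Lsm6 have their highest means in LT, whereas Hnrnph1 and Snrpc are lowest in LT and Lsm4 is low in ET and LT.

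In the snRNP group some U2 factors, which bind the branch site, passed the test and others did not. Sf3b1, the large subunit that holds the branch helix, had 225, 246 and 198 CPM in SA, 223, 184 and 219 in IBA, 244, 239 and 268 in Ent, 427, 380.4 and 329.9 in ET and 417 and 336 in LT. Sf3a1 had 89.7, 93.8 and 70.1 CPM in SA, 109, 90.3 and 93.7 in IBA, 119.9, 135 and 121 in Ent, 174, 138 and 151 in ET and 179.9 and 162 in LT. Both were higher in every cold library than in any warm one, with log2 fold changes of 0.81 (SE 0.11, adjusted p = 2.60e-05) for Sf3b1 and 0.84 (SE 0.11, adjusted p = 1.91e-05) for Sf3a1. The other subunits measured alone did not pass. Sf3b2 had 38.0 ± 2.69 CPM over the warm libraries (SD, n = 6) and 41.6 ± 4.82 over the cold ones (SD, n = 5), with a log2 fold change of 0.10 (SE 0.10, adjusted p = 0.385), and Sf3a3 had a log2 fold change of -0.31 (SE 0.11, adjusted p = 0.0311). For Sf3b3 every cold library (109.9 to 124 CPM) lay below every warm one (136 to 179), and the log2 fold change of -0.43 (SE 0.09, adjusted p = 0.00121) missed the threshold in edgeR but passed it in DESeq2 (adjusted p = 3.03e-05).

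Among the Snrp names, Snrpb2, the U2 protein B″, had 24.8, 22.8 and 20.7 CPM in SA, 19.9, 18.6 and 23.8 in IBA, 23.9, 36.7 and 36.0 in Ent, 50.1, 54.6 and 49.0 in ET and 44.3 and 53.3 in LT. Cold and warm libraries did not overlap, and the log2 fold change was 1.20 (SE 0.14, adjusted p = 1.01e-05). Snrpc, the U1 protein that helps recognise the 5′ splice site, had 23.9, 28.3 and 28.4 CPM in SA, 24.2, 24.2 and 27.0 in IBA, 23.5, 19.0 and 22.1 in Ent, 21.1, 17.3 and 17.1 in ET and 11.3 and 9.28 in LT. Each LT library lay below each ET library, and every cold library below every warm one. The log2 fold change of Snrpc was -0.91 (SE 0.13, adjusted p = 5.22e-05). Snrpb, a core Sm protein, had 24.4 ± 5.11 CPM over the warm libraries (SD, n = 6) and 24.7 ± 7.50 over the cold ones (SD, n = 5), without a difference past the threshold (-0.04 on the log2 scale, SE 0.20, adjusted p = 0.861). The adjacent unit SNRPB_like, which starts 1433 nt downstream on the same strand of chromosome 5, had 39.2 ± 3.05 CPM over the warm libraries (SD, n = 6) and 71.8 ± 7.48 over the cold ones (SD, n = 5) and rose by a log2 fold change of 0.85 (SE 0.10, adjusted p = 1.29e-05).

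Both spliceosomal LSm members, subunits of the ring on U6 RNA, passed the test in opposite directions. Lsm6 had 22.2, 20.4 and 17.9 CPM in SA, 22.7, 23.0 and 23.8 in IBA, 32.2, 34.5 and 37.5 in Ent, 44.3, 43.2 and 51.1 in ET and 45.3 and 57.7 in LT. Its cold libraries all lay above its Ent libraries and those above its warm libraries, with a log2 fold change from warm to cold of 1.18 (SE 0.11, adjusted p = 2.53e-06). Lsm4 had 37.6, 26.1 and 38.1 CPM in SA, 38.4, 51.2 and 42.1 in IBA, 55.8, 45.5 and 36.9 in Ent, 21.4, 14.9 and 18.8 in ET and 12.5 and 16.3 in LT. The cold libraries were below all others, whereas Ent overlapped both warm states, and the log2 fold change was -1.25 (SE 0.17, adjusted p = 4.20e-05), the largest fall among the single-gene members. Lsm12 and Lsm14a, outside the ring, had log2 fold changes of 0.47 (SE 0.10, adjusted p = 0.00143) and 0.35 (SE 0.09, adjusted p = 0.00304) that did not pass, although their cold libraries lay above the warm ones. Both passed in DESeq2 (adjusted p = 7.23e-06 for Lsm12 and 4.66e-05 for Lsm14a) and with total counts as library size (6.13e-04 and 5.97e-04), and Lsm12 also with single-gene units alone (9.87e-04) and without SA replicate 2 (1.07e-04).

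Of the 7 Prpf members, 2 rose in the cold, against 18.3% of all single-gene units. Prpf19, a ubiquitin ligase at the core of the complex that activates the spliceosome, had 39.9 ± 4.00 CPM for SA, 31.4 ± 3.28 for IBA, 38.2 ± 4.70 for Ent, 87.0 ± 18.0 for ET (SD, n = 3 each) and 88.4 ± 23.7 for LT (SD, n = 2). The cold libraries were separate from all others and Ent lay within the warm range, with a log2 fold change of 1.31 (SE 0.14, adjusted p = 6.69e-06). Prpf38b had 83.9, 77.6 and 71.9 CPM in SA, 59.4, 69.8 and 67.5 in IBA, 128, 142 and 149 in Ent, 220.4, 223 and 169 in ET and 115 and 149.9 in LT. Here Ent was already above every warm library and overlapped LT, and the log2 fold change from warm to cold was 1.20 (SE 0.11, adjusted p = 1.61e-06). Its paralogue Prpf38a had 57.2 ± 5.03 CPM over the warm libraries (SD, n = 6) and 56.6 ± 6.01 over the cold ones (SD, n = 5), the smallest difference of all the single-gene members (-0.03 on the log2 scale, SE 0.10, adjusted p = 0.813). The U1-associated Prpf40b had every cold library above every warm one, with a log2 fold change of 0.44 (SE 0.11, adjusted p = 0.00304) that did not pass, but it passed in DESeq2 (adjusted p = 1.35e-04) and with total counts as library size (6.74e-04). Prpf3 and Prpf6, of the tri-snRNP, and Prpf18, of the second catalytic step, had overlapping ranges and log2 fold changes of 0.24, -0.21 and 0.15. Prpf3 had 95.3 CPM in ET replicate 2 against 40.2 and 49.2 in the other ET libraries.

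A torpor bout begins with entrance, when the animal cools, passes through early and late torpor and ends with rewarming to arousal. Each point was sampled in separate animals. The sequence of states was examined step by step, again over all units; neighbouring steps share libraries. Between the warm states, SA and IBA, 0 members passed in edgeR (0.0213% of all single-gene units), 1 had an unadjusted p under 0.05 (23.4%) and 0 passed in DESeq2 (3.72%). Every IBA library lay above every SA library in 6 members (15.5% of all single-gene units) and below in 6 (13.3%). The member with the low unadjusted p was Tra2a, with 121 ± 14.6 CPM for SA and 86.3 ± 6.86 for IBA (SD, n = 3 each) and a log2 fold change of -0.49 (SE 0.13, adjusted p = 0.0559). From IBA to Ent, 0 members passed in edgeR (0.0425% of all single-gene units), whereas 20 had an unadjusted p under 0.05 (33.4%), 13 an adjusted p at or under 0.05 (16.7%) and 6 passed in DESeq2 (6.99%). The largest of these differences were those of Prpf38b, 1.09 (SE 0.15, adjusted p = 0.00251), and Hnrnpa1, 1.07 (SE 0.17, adjusted p = 0.00327), on the log2 scale. In 23 members every Ent library lay above every IBA library, against 21.7% of all single-gene units, and in 3 below (22.5%).

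From Ent to ET, 4 members rose in edgeR, against 1.13% of all single-gene units, and 0 fell (1.17%). In DESeq2, 2 were lower, Lsm4 and Sf3b3, against 326 of all 4705 single-gene units. The 4 were Tra2b (1.51 on the log2 scale, SE 0.15, adjusted p = 2.72e-04), Hnrnpdl (1.54, SE 0.17, adjusted p = 2.72e-04), Tra2a (1.18, SE 0.13, adjusted p = 2.72e-04) and Hnrnpa2b1 (0.84, SE 0.13, adjusted p = 9.29e-04). Hnrnpd (adjusted p = 0.00103), Srsf6 (0.00104), Hnrnpa1 (0.00104) and Srsf11 (0.00106) missed the threshold narrowly, and 23 members had an unadjusted p under 0.05 in either direction (41.1%). DESeq2 called 15 members (15.4%), against 4 by edgeR (2.3%). The edgeR calls depended on single libraries, for the members as for all single-gene units: 0 members passed without Ent replicate 1 (0% of all single-gene units), Ent replicate 2 (0.149%) or ET replicate 2 (0%), and 1, Tra2b, without ET replicate 1 (0.128%). Hnrnpa2b1 was also lost without each other library except SA replicate 2. Upper-quartile factors and blocks of equal replicate number lost Hnrnpa2b1 as well. In 22 members every ET library lay above every Ent library (22.7% of all single-gene units), and in 3 below (21.6%). From ET to LT, 0 members passed in edgeR (0% of all single-gene units), 8 had an unadjusted p under 0.05 (9.27%) and 0 passed in DESeq2 (0.701%). Every LT library lay below every ET library in 15 members (13.9% of all single-gene units) and above in 2 (10.7%).

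Ent stood between the warm and cold means in all 22 members that were higher in the cold, against 92.3% of all single-gene units called higher, and in 3 of the 4 that were lower, against 89.4% of those called lower, so that this place was common to most called units. The exception was Lsm4 with 46.1 ± 9.48 CPM in Ent (SD, n = 3). Of the 22, 14 had the larger log2 step from Ent to ET (64.5% of all single-gene units called higher), such as Tra2b, Tra2a and Prpf19, and 8 from IBA to Ent, among them Prpf38b, Srsf7, SNRPB_like and Hnrnpc. This ordering is a description made after the values were seen.

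Between IBA and LT, 17 members were higher in LT (9.46% of all single-gene units) and 3 lower (8.18%), namely Lsm4, Snrpc and Hnrnpul2. DESeq2 called 25 in either direction (32.2%). The higher ones were 7 SR proteins, 5 hnRNPs and 5 of the snRNP group. Srsf7 had the largest rise, 2.15 (SE 0.23, adjusted p = 2.30e-05) on the log2 scale, and Lsm4 the largest fall, -1.60 (SE 0.26, adjusted p = 3.54e-04). In place of 20 calls, 13 were made without IBA replicate 2 (9.59% of all single-gene units), 12 without IBA replicate 3 (9.67%), 11 without LT replicate 1 (3.83%) and 9 without LT replicate 3 (6.63%), so that calls over all units fell as well. With blocks of equal replicate number 14 were made (12.5%). All IBA animals came from the third of 3 collection seasons, all LT animals from the first and all ET animals from the second, whereas SA and Ent held animals of the first and the third. State and season therefore cannot be told apart for ET. With season as a covariate, which draws on SA and Ent, 7 of the 20 members passed between IBA and LT (5.78% of all single-gene units), all of them higher in LT: Tra2b, Tra2a, Srsf6, Srsf7, Srsf11, Hnrnpa1 and Hnrnpdl. The other 13 kept their direction, with larger standard errors, such as Hnrnph3 (0.82, SE 0.19, against 0.84, SE 0.14, without the covariate) and Lsm4 (-1.94, SE 0.33, against -1.60, SE 0.26). The median log2 fold change of the 39 members was 0.62 with the covariate and 0.64 without. Within the first season, both LT libraries lay above SA replicate 1 in 28 of the 39 members, against 42.7% of all single-gene units, and below it in 8, against 45.4%. Within the third season, Ent replicate 3 lay above every IBA library in 26 of the 39, against 38.0%. Both counts within a season were made after the values were seen and rest on 1 library of SA or Ent.

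On a scale of CPM per kilobase of unit, the order of the members changed between warm and cold. Unit length includes any 3′ extension of the gene, so levels of different genes compare only roughly on this scale. In the warm states Hnrnpa2b1 (16.9 CPM per kb), Hnrnpa3 (15.1) and Hnrnph1 (13.5) led. In the cold states the order was Hnrnpa2b1 (37.6), Tra2b (32.3) and Hnrnpa1 (24.5). Tra2b moved from rank 7 to rank 2 among the 39, Hnrnpdl from 12 to 6, and Hnrnph1 from 3 to 15. The share of all single-gene member counts that fell on Tra2b was 4.75% ± 0.366 in the warm libraries (SD, n = 6) and 11.1% ± 0.822 in the cold ones (SD, n = 5), the largest share of any member there. The median member had 3.67 CPM per kb in the warm and 5.75 in the cold states, against 2.11 and 2.09 over all single-gene units.

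The single-gene members lay on 14 chromosomes, 23 on the plus and 16 on the minus strand, and their median unit length was 23955 nt against 36217 nt over all single-gene units. A same-strand unit ended within 20 kb upstream of 5 members (12.8%, against 10.1% of all single-gene units). Of the 34 members without such a neighbour, 19 were higher in the cold, against 18.3% of all single-gene units without one, and of the 5 with one 3 were, against 17.7%. Hnrnpdl and Hnrnpd lie 19040 nt apart on the plus strand of chromosome 14 and both rose, whereas Snrpb and SNRPB_like, 1433 nt apart, differed in whether they passed the test. These pairs were chosen after their values were seen. Coordinates are those of the HiC_Itri_2 build.

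The 27 merged units hold further family members, with counts that cannot be divided among their genes. Of these, 9 differed in the test of the 5 states (22.8% of all merged units). The merged unit with Hnrnpk did not pass when any 1 library other than SA replicate 1 or Ent replicate 2 was left out, nor with blocks of equal replicate number. Between cold and warm, 10 were higher in the cold (19.6%) and 1 lower (14.5%). The median log2 fold change was 0.40, against 0.01 over all merged units. In 13 units every cold library lay above every warm one (23.2% of all merged units), and in 1 below (17.4%). The largest rise was that of the unit with Hnrnpa0, with 15.5 ± 5.34 CPM over the warm libraries (SD, n = 6) and 65.6 ± 13.8 over the cold ones (SD, n = 5) and a log2 fold change of 2.04 (SE 0.22, adjusted p = 6.38e-06). The unit that joins Hnrnpl to Lgals4 and Ech1 had 218 ± 42.5 CPM over the warm libraries (SD, n = 6) and 558 ± 61.1 over the cold ones (SD, n = 5), a log2 fold change of 1.36 (SE 0.10, adjusted p = 4.39e-07). Srsf2, merged with a small nucleolar RNA, rose by 1.12 on the log2 scale and the unit with Srsf1 by 0.90. Rises also passed for the units with Snrpd3 (1.01), Hnrnpm (0.98), Hnrnpk (0.66), Hnrnpab (0.50) and Hnrnpul1 (0.42).

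The call for the unit with Hnrnpab was lost without SA replicate 1 (adjusted p = 0.00103), SA replicate 3 (0.00101), IBA replicate 1 (0.00122), IBA replicate 3 (0.00136), LT replicate 1 (0.00228) or LT replicate 3 (0.00133), in a range over all alternatives from 2.21e-08 to 0.00228. That with Hnrnpul1 was lost without SA replicate 1 (adjusted p = 0.00127), SA replicate 3 (0.00122), IBA replicate 1 (0.00124), IBA replicate 2 (0.00161), IBA replicate 3 (0.00196), ET replicate 1 (0.00113), ET replicate 3 (0.00127), LT replicate 1 (0.00195) or LT replicate 3 (0.00300), in a range from 1.25e-08 to 0.00300. With blocks of equal replicate number the unit with Hnrnpul1 also missed the threshold (adjusted p = 0.00150). The remaining 16 merged units did not pass between cold and warm in edgeR: those with U2af1 (log2 fold change 0.79), Sf3b4 (0.58), Sf3a2 (0.46), Hnrnpu (0.40), Hnrnpr (0.39), Snrpe (0.38), Prpf4b (0.36), Srsf4 (0.18), Snrpg (0.16), a further HNRNPF copy (0.13), Prpf39 (0.11), Sf3b6 (-0.00358), Prpf8 (-0.07), U2af2 (-0.27), Lsm2 (-0.31) and Snrpa1 (-0.36). Of these 16, the units with Snrpe (adjusted p = 8.31e-06), Hnrnpu (1.94e-05), Hnrnpr (1.45e-04), Sf3b4 (2.77e-04) and Prpf4b (4.60e-04) passed in DESeq2, which called 15 merged units higher (26.4% of all merged units) and 1 lower (20.3%). Those with Snrpe (1.13e-04), Hnrnpu (2.82e-04) and Hnrnpr (8.06e-04) also passed with total counts as library size, and that with Hnrnpu without Ent replicate 3 (5.20e-04). U2af1 shares its unit with Cbs, and the cold libraries of that unit overlapped the warm ones. Between IBA and LT, 6 merged units were higher (10.4% of all merged units) and 1 lower (6.42%), 7 in all. The total was 4 without IBA replicate 1 (9.88%), IBA replicate 2 (9.08%) or IBA replicate 3 (9.76%), 2 without LT replicate 1 (3.83%), 3 without LT replicate 3 (6.61%), and 2 with season as a covariate (5.62%). With blocks of equal replicate number it was 5 (12.2%). In edgeR 0 merged members passed from SA to IBA (0% of all merged units), IBA to Ent (0%), Ent to ET (1.98%) and ET to LT (0%). Unadjusted p fell under 0.05 in 3 (17.9%), 12 (30.0%), 14 (38.8%) and 2 (7.04%) of them, and DESeq2 called 0 (2.84%), 2 (7.29%), 7 (13.2%) and 0 (0.247%), in that order of steps. Without SA replicate 2, 1 merged unit passed from Ent to ET (2.84%).

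Other genes of the splicing pathway were read from lists by symbol, in the comparison of cold with warm. Of 63 spliceosome proteins outside the name rule, 30 had a single-gene unit, of which 9 rose (18.3% of all single-gene units) and 3 fell (18.7%), with a median log2 fold change of 0.34. Rbm22, which contacts the catalytic core, had 20.6 ± 2.53 CPM for SA, 23.4 ± 3.47 for IBA, 34.2 ± 7.28 for Ent, 64.2 ± 3.41 for ET and 53.3 ± 1.82 for LT (SD; n = 3, LT n = 2), a log2 fold change of 1.42 (SE 0.14, adjusted p = 2.34e-06). Sart3, which recycles U6 particles, rose by 1.09 (SE 0.14, adjusted p = 2.08e-05) on the log2 scale. Sugp1, a partner of Sf3b1, had 43.2 ± 5.53 CPM for SA, 37.8 ± 4.35 for IBA, 26.4 ± 5.10 for Ent, 17.7 ± 2.31 for ET and 17.5 ± 0.102 for LT (SD; n = 3, LT n = 2), a log2 fold change of -1.20 (SE 0.14, adjusted p = 1.13e-05), and Mfap1 had -1.21 (SE 0.13, adjusted p = 6.38e-06). Sf3b1 and Sugp1 thus changed in opposite directions.

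Of 50 other splicing regulators, 28 had a single-gene unit, of which 15 rose (18.3% of all single-gene units) and 2 fell (18.7%), with a median log2 fold change of 0.55. Tardbp, a binder of UG repeats, had 74.3 ± 8.54 CPM for SA, 70.0 ± 4.92 for IBA, 132 ± 13.1 for Ent, 243 ± 27.4 for ET and 192 ± 21.6 for LT (SD; n = 3, LT n = 2), a log2 fold change of 1.58 (SE 0.10, adjusted p = 2.30e-07). Khsrp, a binder of intronic and AU-rich elements, rose by 1.56 (SE 0.20, adjusted p = 2.36e-05) on the log2 scale. The falls were in Mbnl2 (-1.26, SE 0.19, adjusted p = 1.00e-04) and Mbnl3 (-1.11, SE 0.23, adjusted p = 9.68e-04), members of the muscleblind family. The call for Mbnl2 was lost without LT replicate 3 (adjusted p = 0.00123), in a range over all alternatives from 2.22e-09 to 0.00123. That for Mbnl3 was lost without SA replicate 1 (adjusted p = 0.00184), SA replicate 3 (0.00162), IBA replicate 1 (0.00275), IBA replicate 3 (0.00252), Ent replicate 1 (0.00157), Ent replicate 3 (0.00120), ET replicate 1 (0.00276), ET replicate 2 (0.00235), ET replicate 3 (0.00169), LT replicate 1 (0.00206) or LT replicate 3 (0.00890), and with total counts as library size (0.00144), in a range from 1.13e-05 to 0.00890. Among 13 kinases and phosphatase partners of SR proteins, 6 had a single-gene unit, of which 2 rose (18.3% of all single-gene units) and 1 fell (18.7%), too few to set against those shares: Srpk1, an SR protein kinase (0.77, SE 0.12, adjusted p = 8.86e-05), and Ppp1cc, a phosphatase catalytic subunit (0.62, SE 0.12, adjusted p = 4.85e-04), rose, and Dyrk1a (-0.50, SE 0.09, adjusted p = 3.52e-04) fell. The call for Ppp1cc was lost without SA replicate 1 (adjusted p = 0.00104), SA replicate 3 (0.00154), IBA replicate 1 (0.00164), IBA replicate 2 (0.00165), IBA replicate 3 (0.00106), LT replicate 1 (0.00190) or LT replicate 3 (0.00313), in a range over all alternatives from 2.89e-06 to 0.00313, and that for Dyrk1a without IBA replicate 1 (adjusted p = 0.00122), IBA replicate 3 (0.00105) or LT replicate 3 (0.00314), and with total counts as library size (0.00200), in a range from 5.29e-07 to 0.00314. Both calls were also lost with blocks of equal replicate number (adjusted p = 0.00150 for Ppp1cc and 0.00105 for Dyrk1a). Of 17 factors of nonsense-mediated decay, which removes transcripts with premature stops, 9 had a single-gene unit (median log2 fold change -0.15). Of these 1 passed the threshold in either direction, against 37% of all single-gene units.

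Marker genes of liver cell types moved as well. Of 15 hepatocyte markers 8 had a single-gene unit, and 5 of these (Apoh, Ttr, Tf, Fgb and Hnf4a) were lower in the cold (18.7% of all single-gene units). Their summed level was 13493, 21293 and 9897 CPM in SA, 14541, 9647 and 11430.3 in IBA, 8585, 7715 and 9055 in Ent, 6386, 3917 and 5650.1 in ET, 7415 and 4942 in LT. Cps1 had the highest mean in SA and Apob in the other states. The summed level of the 8 was lower in every cold library than in every warm one, with the Ent libraries in between. Apob (log2 fold change -0.23, adjusted p = 0.218), Cps1 (-2.12, adjusted p = 0.00152) and Fgg (-1.26, adjusted p = 0.00734) did not pass. Of 10 sinusoidal endothelial markers 4 had a single-gene unit, of which Kdr and Eng were lower (18.7%). Pecam1 (log2 fold change -0.68) and Stab1 (0.39), which went the other way, did not pass. Kdr had the highest mean except in LT, where Stab1 did, and the summed level of the 4 markers was 213, 226 and 266 CPM in SA, 233, 228 and 258 in IBA, 264, 229.6 and 235 in Ent, 220.1, 137 and 183 in ET, 148 and 161 in LT. Here ET replicate 1 overlapped the warm libraries. Of 6 cholangiocyte markers 1, Sox9, had a single-gene unit and was lower (18.7%). Macrophage, stellate cell and lymphocyte markers had no single-gene unit. The part of cell composition in the result was not tested.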

How the data were processed

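The authors trimmed reads with cutadapt, aligned them with BWA to HiC_Itri_2 and used featureCounts on gene bodies redefined with fstitch. The deposited matrix holds raw counts for 6324 units in 14 libraries, and the deposited Length column gives unit length in nt. The authors removed LT replicate 2. Counts were analysed with edgeR 4.0.16 in R 4.3.3 (TMM, quasi-likelihood, 1 coefficient per state, no filter, adjustment over all units, threshold 0.001). The alternatives were DESeq2 1.42.0, upper-quartile factors, total counts, at least 10 counts in every library, single-gene units alone, thresholds of 0.05 or 2-fold, blocks of equal replicate number, collection season added to the model, and omission of any 1 library. Their use for merged units, lists, members outside the rule for named genes and library overlap was added after seeing the data. Replicate numbers label separate animals and mark no known block. Between libraries of different states, deviations from the state mean in log2 CPM had a median correlation of 0.034 for equal numbers (26 pairs). For unequal numbers it was -0.0082 (52 pairs). The fit was tested on simulated data. Members and lists were chosen with earlier results of these data known. Named were members past 0.001 across the 5 states or in cold against warm, the 3 others with the smallest difference, all merged units, and the 2 largest rises and falls of each list. Some items under this rule are not reported here. The spread for the median, which is not given here, is the pooled SD within states of the members' median log2 of CPM plus 0.5. Promoter motifs were not analysed, as no promoter sequences were used.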

Additional observations from a re-analysis of the deposited data

How the results depend on the processing

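Across 29 named members and 20 alternatives, 548 of 580 differences between cold and warm kept their direction and side of the threshold, 32 fell short of it and 0 reversed. For the 10 members outside the rule for named genes, 188 of 200 kept their side and 12 were newly past it, spread over 5 members. For merged units this was 488 of 513, with 16 weaker and 9 newly past it, and for list genes 203 of 240, with 37 weaker. Total counts as library size moved the median of all single-gene units from -0.07 to 0.05 and that of the members from 0.65 to 0.77.

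Shares in brackets are those of all single-gene units, or of all merged units for merged counts. With DESeq2, 26 single-gene members were higher (23.8%) and 5 lower (25%) in the cold, and with total counts 26 higher (22.2%) and 3 lower (15.3%). With DESeq2, 6 single-gene members passed between IBA and Ent (6.99%) and 15 at the step to ET (15.4%). Of the merged units, 15 were higher (26.4%) and 1 lower (20.3%) in the cold, 17 passed across the 5 states (46.1%), 2 between IBA and Ent (7.29%), 7 at the step to ET (13.2%) and 11 between IBA and LT (30.9%). With total counts, 8 single-gene (2.53%) and 1 merged member (2.84%) passed from Ent to ET, 1 regulator, 0 kinases and 0 decay factors were lower. At 0.05, 7 single-gene members were lower in the cold (35%), 13 passed between IBA and Ent (16.7%) and 19 at the step to ET (29.2%). Merged units at 0.05 numbered 19 across the 5 states (58.4%), 16 higher (32.9%), 2 lower (29.9%), 7 between IBA and Ent (14.4%), 9 at the step to ET (27.4%) and 13 between IBA and LT (47.3%). In the lists at 0.05, 18 spliceosome genes were higher and 7 lower, 6 regulators lower, and 1 decay factor higher and 3 lower, where 30.1% of all single-gene units were higher and 35% lower. With a 2-fold minimum, 13 single-gene members were higher (9.46%) and 1 lower (13.4%), and 5 merged units higher (8.4%). Fewer genes can pass a stricter rule and more a looser one by construction. With the replicate block 20 single-gene members and 1 kinase were higher (15.9%), and 3 members, 0 kinases and 0 decay factors lower (16.6%). Under this block 19 single-gene members passed across the 5 states (19.3%), 14 from IBA to LT (12.5%) and 3 from Ent to ET (0.914%). Of the merged units 5 passed from IBA to LT (12.2%). With season as a covariate 7 single-gene (5.78%) and 2 merged members (5.62%) passed from IBA to LT, while the median log2 fold change of the single-gene members was 0.62 against 0.64 in the main fit. Without 1 library each, counts ranged from 0 to 5 from Ent to ET (0% to 3.23%) and 9 to 23 from IBA to LT (3.83% to 19.7%), and for merged units from 0 to 1 (0% to 2.84%) and 2 to 7 (3.83% to 18.2%). In the lists there were 1 to 2 lower regulators, 1 to 3 higher and 0 to 1 lower kinases, and 0 to 1 lower decay factors, where 14.3% to 18.3% of all single-gene units were higher and 11.5% to 18.9% lower. Why the counts differed between settings was not tested. The lowest count of a merged member in any library was 32, so counting error weighs most on the least transcribed units.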
